A study of Mus musculus with 40 samples.

Results

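The cerebral cortex of 29-month-old Ttpa-/- mice on a diet supplemented with α-tocopherol was compared with the cortex of 29-month-old wild-type mice on a diet without it. Arrays were chosen by their labels, 4 for each group, so 8 of the 40 arrays of the series carried the comparison. The whole series measured cortex and cerebellum on 1-colour Agilent arrays in 10 groups of 4 samples. The labels do not say whether cortex and cerebellum came from the same mice. Each region had a young (2 months) and an aged wild-type group fed normally, a deficient aged wild-type group, and 2 aged Ttpa-/- groups, a deficient and a supplemented one. The supplemented diet held 600 mg and the normal diet 36 mg of α-tocopherol per kg, and all mice were of the C57Bl/6 background. The supply of vitamin E was altered in both groups, by opposite diets, and the genotype differed as well. The effects of genotype and diet therefore cannot be told apart in this comparison. The 2 groups lay on the same slide, the Ttpa-/- arrays in row 2 and the wild-type arrays in row 1, so that row and group cannot be told apart either. The slide column equalled the replicate number on every array.

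Ttpa encodes the α-tocopherol transfer protein, which the liver uses to load α-tocopherol, the main form of vitamin E, into circulating lipoproteins. Without it, tissues including the brain become depleted of vitamin E unless the diet provides a large excess. Vitamin E is a fat-soluble antioxidant that stops chain reactions of lipid peroxidation in membranes, and the brain is rich in the polyunsaturated lipids that such reactions attack.

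The 2 groups had very similar profiles, and 9 of 28445 tested probes were called. A probe entered the test when all 4 arrays of 1 group or of both measured it well above background, and it was called at a limma adjusted p under 0.05 with a fold change over 1.5. Up-regulated in the supplemented Ttpa-/- cortex were 7 probes (0.0246% of those tested), and 2 were down-regulated (0.00703%). Car8 (carbonic anhydrase 8, a catalytically inactive relative of the carbonic anhydrases) was the gene among the down-regulated probes, and Invs, Asph and Col4a5 were the genes among the up-regulated ones. The other 5 called probes carried no gene symbol. Without the fold threshold, 14 probes had an adjusted p under 0.05 (0.0492%), and 7 of these lay on chromosome 4, which held 6.4% of the tested probes and holds Ttpa itself. At an unadjusted p under 0.05 and the same fold threshold, 538 probes were higher and 175 were lower in the Ttpa-/- cortex. The median log2 change of all tested probes was -0.016.

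The counts depended on single arrays and on the scaling. With wild-type replicate 1, 2, 3 or 4 left out, the up- and down-regulated probes numbered 2 and 1, 3 and 1, 5 and 2, or 60 and 39, and with Ttpa-/- replicate 1, 2, 3 or 4 left out they numbered 24 and 5, 13 and 1, 5 and 1, or 3 and 3. They were 1 and 1 with each array scaled to its median, 5 and 1 after quantile normalization, 2 and 3 after normexp background correction, and 0 and 0 in a limma fit of the 8 arrays alone, where 345 probes were higher and 135 lower at an unadjusted p under 0.05.

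The arrays themselves differed in brightness. The 75th percentile of the processed signal, by which each array was scaled, was 518 to 547 on the Ttpa-/- arrays and 453 to 500 on the wild-type arrays, with no overlap (exact two-sided permutation test, p = 0.0286, the smallest that 4 against 4 arrays allow). The share of probes well above background was 53% to 57.1% and 53.4% to 54.3%, and the ranges overlapped (exact permutation p = 0.4). Pearson correlations of log2 signal across probes were 0.986 to 0.995 within the Ttpa-/- group, 0.986 to 0.994 within the wild-type group and 0.977 to 0.994 between them. The Ttpa-/- arrays were not uniform. Deviations from the group mean correlated at 0.3 between replicates 3 and 4, and at -0.69 to -0.54 between these and replicates 1 and 2. Such deviations cancel within a group, which lowers these correlations. The share above background was 53.5% and 53% on replicates 1 and 2 and 56.4% and 57.1% on replicates 3 and 4. Of 24 markers of cortical excitatory neurons, 0 stayed below background on all 8 arrays. Xist was well above background on all 40 arrays and 4 genes of the Y chromosome on 0.

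Several of the probes that passed the test do not name a gene, and their 60-base sequences are what identifies them. The first 30 bases are shown for the probe without any annotation and for the gene probes, and the full probe for the 3 that the array's design assigns to long intergenic non-coding RNAs (lincRNAs). Sequences are those of the array design, printed from the first base, with no letters in capitals because no part of them is singled out. Coordinates are mm9, as the array files give them.

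A_55_P2424060 (chr14:39772023-39772082): ttctcctcctgcagtctcctgattcttggc
lincRNA A_30_P01024563 (chr16:21805753-21805812): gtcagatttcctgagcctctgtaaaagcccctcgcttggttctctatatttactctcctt
lincRNA A_30_P01028904 (chr3:85783289-85783348): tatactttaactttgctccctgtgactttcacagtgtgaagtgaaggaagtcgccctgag
lincRNA A_30_P01018977 (chr16:77691555-77691614): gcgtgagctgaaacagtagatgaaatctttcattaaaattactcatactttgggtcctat

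The unannotated probe A_55_P2424060, on the plus strand of chromosome 14, had the smallest adjusted p of all. Its log2 signal relative to the array's 75th percentile, the scale of every level given here, was -1.41, -1.13, -1.34 and -1.24 in the Ttpa-/- cortex and -2.37, -2.29, -2.32 and -2.07 in the wild-type cortex. Each Ttpa-/- array stood above each wild-type array. The difference was 0.98 on the log2 scale (SE 0.12), a fold change of 1.98, with an adjusted p of 4.63e-05. It was also higher in the deficient Ttpa-/- cortex, with a mean of -1.04, than in the wild-type cortex of normally fed mice, young (-2.45) or aged (-2.32).

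The lincRNA probe A_30_P01024563 lies in a transcribed region that the design places at chr16:21794415-21815365. Its levels were -1.56, -1.29, -1.55 and -1.27 in the Ttpa-/- cortex against -2.68, -2.35, -2.51 and -2.04 in the wild-type cortex. The groups did not overlap, and the probe was up-regulated 1.97-fold (log2 0.98, SE 0.14, adjusted p = 0.000877). The deficient Ttpa-/- cortex had the same mean as the supplemented one, -1.42.

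The other lincRNA probes behaved differently across the series. A_30_P01028904, in an interval of chromosome 3 at 85783094-85783408, measured -3.45, -3.56, -3.17 and -3.19 in the Ttpa-/- cortex and -5.62, -5.31, -5.06 and -4.45 in the wild-type cortex. Background was clearly exceeded on 4 of 4 arrays of the Ttpa-/- and 1 of 4 of the wild-type group, so the probe entered the test through the Ttpa-/- arrays and the size of the change rests on signals near background. The fitted fold change was 3.41 (log2 1.77, SE 0.30, adjusted p = 0.00882). The remaining cortex groups stood with the Ttpa-/- arrays: the means were -3.42 in young and -3.43 in aged normally fed wild-type mice and -3.54 in deficient Ttpa-/- mice. The deficient wild-type arrays were the low ones, and the log2 change was 0.38 under normexp background correction. A_30_P01018977 on chromosome 16 had means of -2.17 ± 0.17 and -2.77 ± 0.20 (SD, n = 4 each). It was up-regulated 1.52-fold (log2 0.60, SE 0.12, adjusted p = 0.0251 by limma), an adjusted p under 0.05 that held in 2 of 8 fits with an array left out, and its log2 change was 0.25 under normexp.

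**Figure D1:**
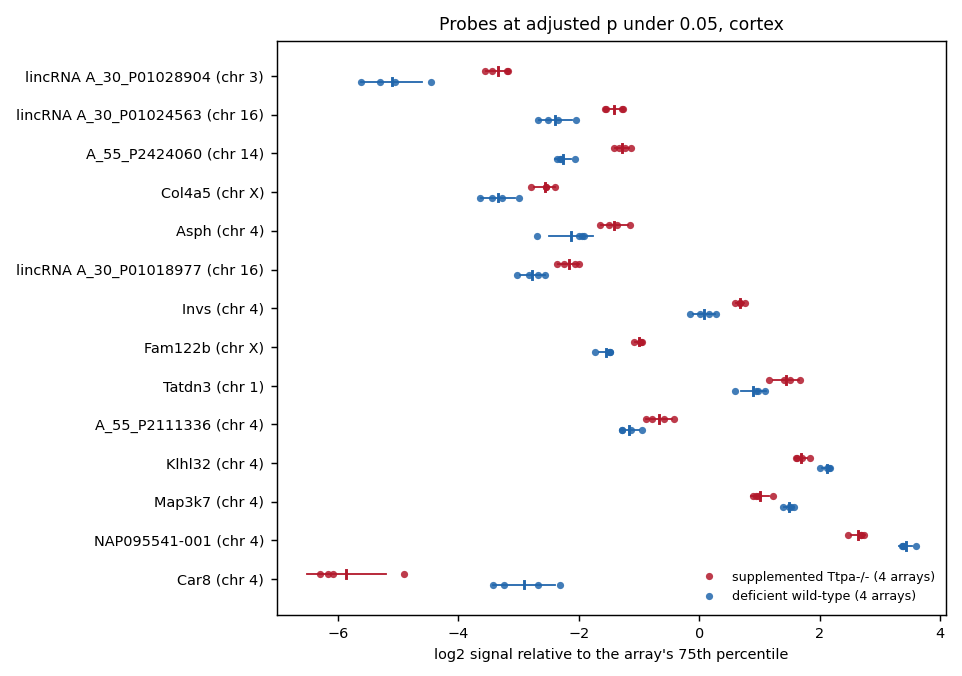
The 14 probes with an adjusted p under 0.05 in the cortex, with log2 signal relative to the array's 75th percentile on the horizontal axis, a point for each of the 4 supplemented Ttpa-/- (red) and 4 deficient wild-type (blue) arrays, and bars for mean and SD. Points of the 2 groups do not overlap in any of the 14, which were selected by a small p in this same comparison. Over all tested probes, the groups do not overlap for 5.56%. Car8 shows the widest gap.

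Car8 encodes a protein that binds the inositol trisphosphate receptor and is abundant in cerebellar Purkinje cells. The probe with the call lies on the minus strand of chromosome 4 and begins as follows.

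Car8 A_51_P392005 (chr4:8070545-8070604): atctgattcagaatagaaacattactgtgt

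Its levels were -6.17, -6.08, -4.9 and -6.3 in the Ttpa-/- cortex and -3.43, -3.24, -2.67 and -2.31 in the wild-type cortex. None of the Ttpa-/- arrays (0 of 4) but every wild-type array (4 of 4) measured it well above background, and the groups were far apart. The probe therefore entered the test through the wild-type arrays alone. Because the Ttpa-/- signal was not above background, the difference is a bound: Car8 was at least 3-fold lower. The limma adjusted p of 0.00547 belongs to the fitted log2 change of -2.95, which rests on Ttpa-/- signals below background, and not to the bound. The fitted log2 change kept an adjusted p under 0.05 in 8 of 8 fits with an array left out, which use the same signals below background. It did not in fits of the 8 arrays alone or of the 20 cortex arrays alone. Under normexp it was -0.96 without reaching that threshold. This background correction was run with an added offset of 50, which compresses the changes of dim probes. The second Car8 probe was well above background on 0 of 4 and 1 of 4 arrays, with means of -6.59 and -4.73, and was not tested in the cortex.

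By group means, Car8 was low in both Ttpa-/- groups and both regions. Replicate 4 of the deficient Ttpa-/- group stood above its group in both. It measured -3.32 in the cortex, within the range of the deficient wild-type arrays. In the cerebellum it measured 3.65, against 1.44 to 1.77 for the rest of that group. In the cerebellum, where the signal was well above background on all arrays, the supplemented Ttpa-/- mean was 1.79 and the deficient wild-type mean 4.38, a 6.01-fold difference (log2 -2.59, adjusted p = 0.000708). A test of the difference between cortex and cerebellum did not pass (interaction, adjusted p = 0.855). In cortex arrays that share no sample with this comparison, the deficient Ttpa-/- mice were lower than normally fed aged wild-type mice, with a fitted log2 change of -2.71 (adjusted p = 0.000307). Car8 exceeded background on 2 of 4 of those Ttpa-/- arrays. Of the 20 markers of cerebellar cells on the array, Cbln3, Eomes, Gabra6 and Ppp1r17 stayed below background on all 8 cortex arrays.

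Invs encodes inversin, a protein of the primary cilium. Its levels were 0.59, 0.68, 0.68 and 0.76 in the Ttpa-/- cortex and -0.16, 0.02, 0.16 and 0.28 in the wild-type cortex. All Ttpa-/- arrays stood above all wild-type arrays, and the probe was up-regulated 1.52-fold (log2 0.60, SE 0.10, adjusted p = 0.00547), just past the fold threshold. The deficient Ttpa-/- cortex, with a mean of 0.24, and the normally fed aged wild-type cortex, with 0.44, lay between. Without wild-type replicate 1 the adjusted p was 0.0742, and the adjusted p stayed under 0.05 in the other 7 of 8 such fits. With median scaling, and in a fit of the 8 arrays alone, it did not stay under 0.05.

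Asph encodes aspartate β-hydroxylase and, through alternative transcripts, junctin and related proteins of the endoplasmic reticulum. The called probe measured -1.65, -1.36, -1.15 and -1.50 in the Ttpa-/- cortex and -2.69, -1.92, -1.94 and -1.99 in the wild-type cortex. Wild-type replicate 1 was the lowest array, and the groups did not overlap. The probe was up-regulated 1.65-fold (log2 0.72, SE 0.14, adjusted p = 0.0234), with an adjusted p under 0.05 in 4 of 8 fits with an array left out and a log2 change of 0.42 under normexp. The deficient Ttpa-/- cortex had a mean of -2.30 and did not share the rise. Its log2 change against the deficient wild-type cortex was -0.16 (limma adjusted p = 0.441). The supplemented stood above the deficient Ttpa-/- cortex by 0.88 (limma adjusted p = 0.000166), with those 2 groups on different slides. The 4 Asph probes gave log2 changes of -0.11 to 0.72, and the called one stood alone among them.

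Col4a5, a chain of the type IV collagen of basement membranes, was the called gene outside chromosome 4. Its X-linked probe measured -2.80, -2.54, -2.40 and -2.55 in the Ttpa-/- cortex and -3.45, -3.27, -3.64 and -2.99 in the wild-type cortex. The groups did not overlap, and the probe was up-regulated 1.7-fold (log2 0.76, SE 0.14, adjusted p = 0.0234). That adjusted p held in 2 of 8 fits with an array left out, and the log2 change under normexp was 0.24.

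The probe NAP095541-001, named only by an internal accession and lying on chromosome 4 between Car8 and Asph, was the second down-regulated one. It measured 2.68, 2.47, 2.68 and 2.73 in the Ttpa-/- cortex and 3.60, 3.36, 3.38 and 3.38 in the wild-type cortex. Every Ttpa-/- array was below every wild-type array, by 1.73-fold on average (log2 -0.79, SE 0.14, adjusted p = 0.0216). The adjusted p stayed under 0.05 in 3 of 8 fits with an array left out, and did not with median scaling or quantile normalization. In the arrays without shared samples its log2 change was -0.92 (adjusted p = 0.000101). The unannotated, lincRNA and NAP095541-001 probes were named after their values were seen.

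A further 5 probes passed the adjusted p with a fold change under 1.5. Klhl32, a member of the kelch-like family, fell by 0.42 on the log2 scale (SE 0.08, adjusted p = 0.0216), from 2.12 ± 0.08 in the wild-type to 1.69 ± 0.10 in the Ttpa-/- cortex (SD, n = 4 each, limma). This was 1 of 2 tested Klhl32 probes, and the other had a log2 change of 0.14 with overlapping groups (adjusted p = 0.845). Fam122b, on the X chromosome, rose by 0.55 (adjusted p = 0.0251). Tatdn3, of the TatD family of nucleases, rose by 0.54 (adjusted p = 0.0289). The unannotated probe A_55_P2111336 lies a few kilobases from the Klhl32 probe on the same strand and rose by 0.50 (adjusted p = 0.0371), opposite to the Klhl32 probe that passed. With an array left out, the adjusted p stayed under 0.05 in 5 of 8 fits for Klhl32, 4 of 8 for A_55_P2111336, 3 of 8 for Fam122b and 2 of 8 for Tatdn3.

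Map3k7 encodes TAK1, a kinase that relays signals of cytokine receptors to NF-κB and JNK. It is shown with all its probes because they pointed in different directions within a few kilobases of chromosome 4.

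Map3k7 A_52_P175952 (chr4:32104023-32104082): gtgcccaaactccaaagaatccatggcagt
Map3k7 A_55_P2049086 (chr4:32107645-32107704): ctgagtctgttgccttcccatgcttttaag
Map3k7 A_55_P2127804 (chr4:32108103-32108162): tgtgccttcctcaaaacctgttagtagaaa

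A_55_P2049086, the probe that passed, measured 0.97, 0.95, 0.89 and 1.23 in the Ttpa-/- cortex and 1.52, 1.49, 1.58 and 1.39 in the wild-type cortex. It fell by 0.48 on the log2 scale (SE 0.09, adjusted p = 0.0234), with an adjusted p under 0.05 in 3 of 8 fits with an array left out. A_52_P175952 had a log2 change of -0.50 that did not pass (adjusted p = 0.194), and its groups overlapped. A_55_P2127804 went the other way, with means of -1.57 and -2.03 and a log2 change of 0.46 (adjusted p = 0.07). In the arrays without shared samples, A_55_P2127804 was higher in the Ttpa-/- cortex by 0.61 (adjusted p = 0.000142) while A_55_P2049086 was lower by a log2 change of -0.62 (adjusted p = 4.82e-05).

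**Figure D2:**
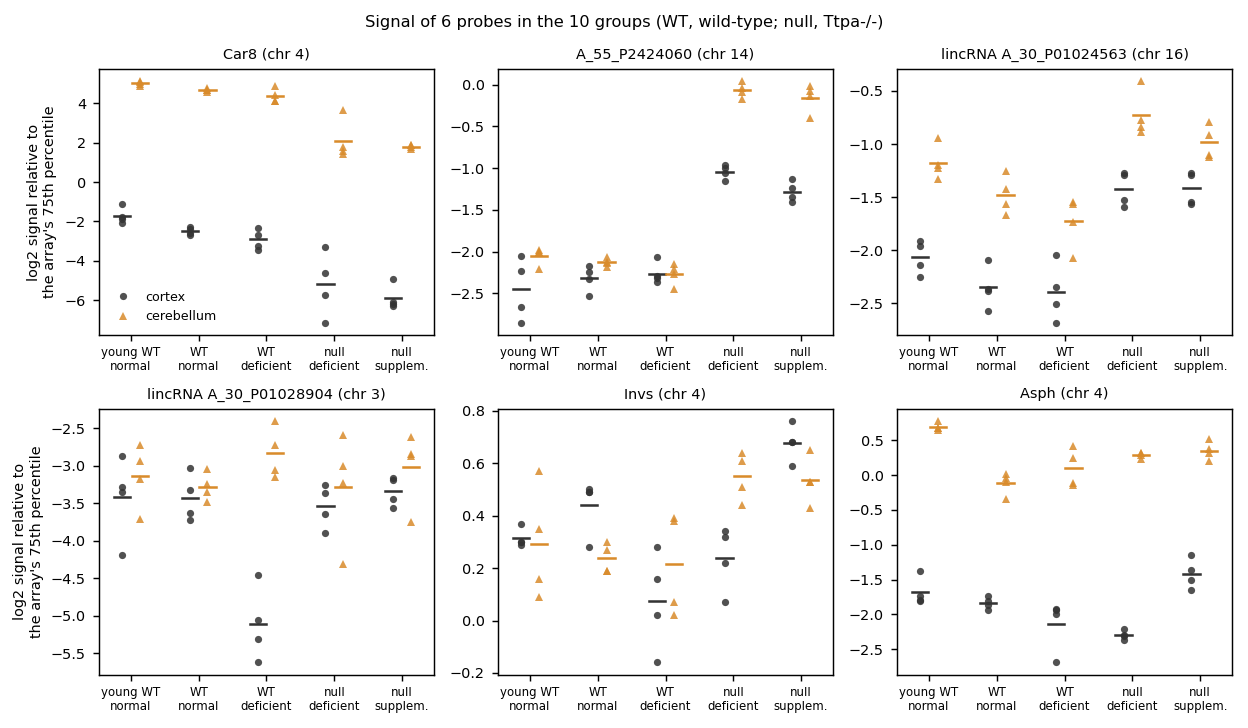
Log2 signal relative to the array's 75th percentile for 6 called probes in the 5 cortex groups (circles) and 5 cerebellum groups (triangles), with a point for each of 4 arrays and a bar for the mean. By group means, Car8 is low, and A_55_P2424060 and lincRNA A_30_P01024563 are high, in both Ttpa-/- groups of both regions, while lincRNA A_30_P01028904 is low in the deficient wild-type cortex.

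The same contrast in the cerebellum called 1096 of 31279 tested probes (3.5%), where the Ttpa-/- and wild-type arrays lie on different slides and slide and group cannot be told apart. The cerebellum samples may come from the same mice as the cortex samples, and the tests between regions took them as unpaired. A_55_P2424060 was 4.32-fold higher there (log2 2.11, adjusted p = 1.13e-13), a larger change than in the cortex (interaction, adjusted p = 0.000132). The lincRNA A_30_P01024563 was higher by 0.75 (adjusted p = 0.00078), and the test of the difference between regions did not pass (interaction, adjusted p = 0.622). Klhl32 was lower by a log2 change of -0.86 (adjusted p = 4.98e-09), about as in the arrays without shared samples (-0.82, adjusted p = 5.83e-08), and its change differed between regions (interaction, adjusted p = 0.0206). Map3k7 A_55_P2049086 had a log2 change of -0.57 (adjusted p = 0.000122). The lincRNA A_30_P01028904 (-0.18, adjusted p = 0.767) and Tatdn3 (-0.20) had changed in the cortex and did not pass in the cerebellum, with adjusted p of 0.00798 and 0.00458 for the difference between regions. Over all probes, 923 of 32176 (2.87%) were called for a difference between the regions.

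The arrays without shared samples set deficient Ttpa-/- cortex against the cortex of normally fed aged wild-type mice, and called 1373 of 28913 tested probes (4.75%). Those groups lie on different slides, so slide and group cannot be told apart. Their arrays entered the same limma fit, so the residual variance was shared although the samples were not. A_55_P2424060 (log2 1.27, adjusted p = 5.83e-08), lincRNA A_30_P01024563 (0.93, adjusted p = 5.98e-05), Car8 and NAP095541-001 had changes of the same direction there. Asph (-0.46, adjusted p = 0.0169) and lincRNA A_30_P01018977 (-0.44, adjusted p = 0.00804) had changes of the opposite direction. Invs (-0.20, adjusted p = 0.148) and Col4a5 (-0.24, adjusted p = 0.24) did not pass.

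Chromosome 4 held more of the low p values than any other chromosome. Of its 1821 tested probes, 77 had an unadjusted p under 0.01 (4.23%), against 2.67% of all tested probes. The X chromosome followed with 42 of 1097 (3.83%). Of the 50 probes with the smallest p, 17 lay on chromosome 4, and of the first 100, 26 did.

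Within chromosome 4 the share was uneven. In the stretch from 20 Mb before to 60 Mb after the Ttpa probe, chosen after the values were seen and therefore given without a test, 44 of 571 tested probes had p under 0.01 (7.71%). The rest of the chromosome had 33 of 1250 (2.64%) and the other chromosomes 682 of 26624 (2.56%). Of the 44, 21 were higher and 23 lower in the Ttpa-/- cortex, so the stretch did not move in 1 direction. In bins of 10 Mb, the share ran from 1.37% (1 of 73) directly before Ttpa to 23.8% (5 of 21) at 50 to 60 Mb, and beyond the stretch it reached 6.25% at 70 to 80 Mb and 5.15% at 120 to 130 Mb. The groups of 4 arrays did not overlap for 54 of its 571 probes (9.46%), against 5.46% on other chromosomes and 5.56% over all tested probes.

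The probes of this stretch were followed in arrays outside the compared groups. Those arrays entered the same limma fit, so the p values that selected the probes and those of the follow-up share a residual variance. The stretch was also chosen after the values were seen. The shares below are therefore descriptive and not an independent check. Of the 44, 31 had the same sign in the cerebellum, 18 of them with p under 0.05 (40.9% of the 44), and among the 715 other probes at p under 0.01 the corresponding share was 18.2%. In the cortex arrays without shared samples, 32 of the 44 had the same sign and 21 also p under 0.05 (47.7%), against 9.79% of the other 715. In those arrays, 25% of the tested probes of the stretch and 19.3% on other chromosomes had p under 0.01, and in the cerebellum 14.8% and 10.5%, where 10.6% of all tested probes did. Aged against young wild-type cortex, both of the same genotype, gave 5.38% in the stretch and 7.41% on other chromosomes. Whether the DNA sequence around Ttpa differs between the Ttpa-/- and wild-type mice was not tested.

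**Figure D3:**
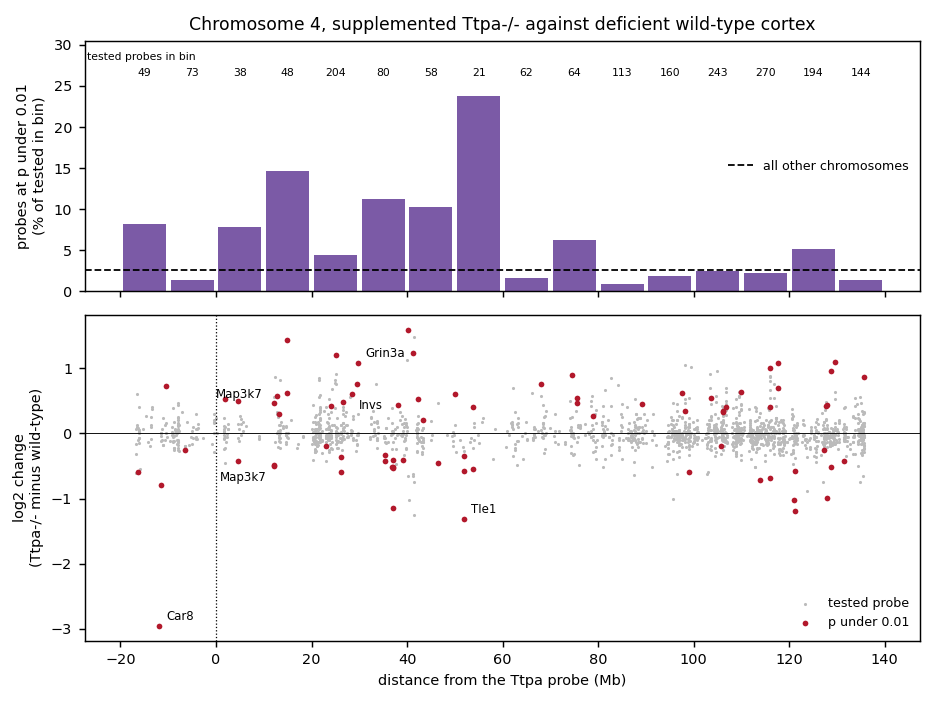
Upper panel, the percentage of tested probes with unadjusted p under 0.01 in bins of 10 Mb along chromosome 4, by distance from the Ttpa probe, with the number tested above each bin and the level of all other chromosomes as a dashed line; lower panel, the log2 change of each tested probe. Probes with p under 0.01 (red) make up 7.71% from 20 Mb before to 60 Mb after Ttpa, unevenly by bin, and lie on both sides of 0.

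The Ttpa probes themselves gave little signal in the cortex. The first measured -6.67, -6.55, -6.65 and -6.84 in the Ttpa-/- cortex and -6.78, -5.75, -5.41 and -4.07 in the wild-type cortex, with 0 of 4 and 1 of 4 arrays above background. The groups overlapped and the probe was not tested, so the cortex arrays do not check the genotype through it. In the cerebellum, with 1 of 4 and 4 of 4 arrays above background, its log2 change was -1.89 (adjusted p = 0.000606). The second Ttpa probe did not exceed background in the cortex (0 of 4 arrays in each group) and had means of -6.42 and -6.44. Probe positions relative to the deleted part of the gene are not given in the sources used here.

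Other genes of chromosome 4 came near the threshold without passing. Tle1, a transcriptional corepressor of the Groucho family, had 3 probes with log2 changes of -1.31 to -0.27. The one of largest change measured 0.46, 2.10, 2.06 and 2.16 in the Ttpa-/- cortex and 3.12, 2.95, 3.03 and 2.91 in the wild-type cortex (adjusted p = 0.0961). The groups were apart, and Ttpa-/- replicate 1 stood far below the other 3. The Tle1 probe of smallest p, A_55_P1968362, had a log2 change of -0.58 (adjusted p = 0.0506), against 0.33 in the cerebellum and 0.34 in the arrays without shared samples.

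Grin3a, a subunit of NMDA-type glutamate receptors, measured -0.62, 0.03, -0.86 and -0.55 against -1.75, -1.73, -1.63 and -1.20. The groups did not overlap, with a log2 change of 1.08 (SE 0.24, adjusted p = 0.0961), and in the cerebellum 1.01 (adjusted p = 0.00727). Cdk5rap2, a centrosomal protein, had changes of 0.60 in the cortex (adjusted p = 0.07, with its other tested probe at 0.12) and 0.61 in the cerebellum (adjusted p = 0.0028). The 3 probes of 6430704M03Rik, now named Frrs1l and known as a component of AMPA receptor complexes, had changes of -0.53 to -0.41, with an adjusted p of 0.07 for the brightest.

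Further chromosome 4 genes that did not pass were Grrp1 (log2 -0.72, adjusted p = 0.0532), 4930579C15Rik (0.89, adjusted p = 0.0685) and Casp8ap2, a partner of caspase 8 (0.57, adjusted p = 0.108, with its other probe at 0.01). 4930579C15Rik was well above background on 4 of 4 Ttpa-/- and 2 of 4 wild-type arrays and entered the test through the Ttpa-/- arrays. On other chromosomes, the genes of smallest p were B230206H07Rik (1.16), Tpm1, an actin-binding tropomyosin (-0.48), Rnf135, a ubiquitin ligase of RIG-I signalling (-0.39), Mlph (-1.04), Scrn2 (0.43), Phkg1 (0.58), Ssh1, a cofilin phosphatase (-0.59), Tnfsf9, the ligand of 4-1BB (-1.06), and Slc38a6 (0.70). Their adjusted p values were 0.112 to 0.141. B230206H07Rik exceeded background on 4 of 4 Ttpa-/- and 2 of 4 wild-type arrays, and Tnfsf9 on 2 of 4 and 4 of 4. Each entered the test through its higher group alone.

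Of the genes that the study followed, Car8 is described above, and the values of the others overlapped between these 2 groups. Pla2g3, a secreted phospholipase A2, measured -0.78, -0.28, -0.61 and -1.08 in the Ttpa-/- cortex and 0.47, 0.08, -0.07 and -1.86 in the wild-type cortex. Wild-type replicate 4 was the lowest array and replicate 1 the highest, the groups overlapped, and the log2 change was -0.34 (SE 0.40, adjusted p = 0.841). Ide, which encodes insulin-degrading enzyme, measured 0.66, 0.39, 0.72 and 0.67 against 0.62, 0.54, 0.76 and 0.49, with a log2 change of 0.01 (SE 0.21, adjusted p = 0.997). Gm3448 (-0.08, adjusted p = 0.96), Fcgbp (0.26, adjusted p = 0.889) and Tcp10c (-0.09, adjusted p = 0.96) did not pass. Mybpc2 and Tsga10 were not above background on all 4 arrays of either group and were not tested.

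Lists of genes for pathways and cell types were then read across the comparison, a gene being represented by its brightest tested probe. Of 38 lists, 37 held no called gene in either direction, and the exception was Car8 among the markers of cerebellar cells. Of all tested probes 0.0246% were called higher and 0.00703% lower, and the counts are to be read against these shares. The lists are described by their medians, beside the median of -0.016 over all tested probes. The sign of the median turned under at least 1 of the other scalings for 19 of the 38 lists, whose medians lay within 0.119 of 0, and with an array left out for 17. Fewer cells of a type and less RNA per cell cannot be told apart in these bulk samples.

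**Figure D4:**
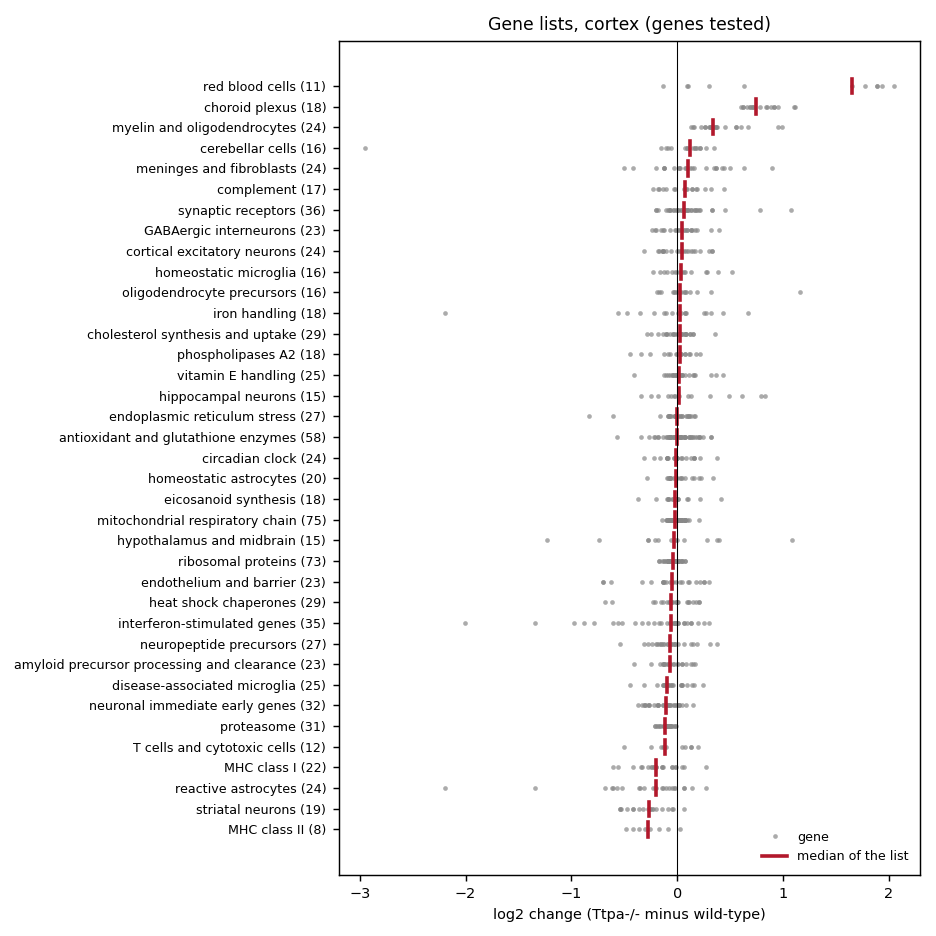
Log2 change (supplemented Ttpa-/- minus deficient wild-type cortex) of every tested gene of each list (grey points) with the median of the list (red bar) and the number of genes tested in brackets. Red blood cell, choroid plexus and myelin lists lie to the right of 0, and MHC class II, striatal neuron, reactive astrocyte and MHC class I lists have the lowest medians.

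None of the genes for handling vitamin E passed the test. Of 25 tested, 13 had a positive log2 change, the median was 0.02 and the smallest adjusted p was 0.466, for a range of -0.41 to 0.43. Rlbp1, a retinaldehyde-binding relative of the transfer protein, had the largest change (0.43), and Cyp3a11, a drug- and lipid-metabolising cytochrome, the lowest (-0.41, adjusted p = 0.542). Antioxidant and glutathione enzymes had 27 of 58 above 0 and a median of -0.004. The metal-binding Mt2 had the lowest change among them, -0.57 (adjusted p = 0.448), with levels of 6.89, 7.04, 6.65 and 6.81 against 8.05, 7.54, 7.30 and 6.79. Wild-type replicate 4 fell among the Ttpa-/- arrays. Its neighbour Mt1 had -0.34 (adjusted p = 0.526).

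The lipid lists also had medians near 0. Phospholipases A2 had 10 of 18 genes above 0 and a median of 0.022, with Pnpla2, the triglyceride lipase of lipid droplets, at -0.45 (adjusted p = 0.5). Eicosanoid synthesis had 6 of 18 above 0 and a median of -0.019, with Ephx2, soluble epoxide hydrolase, at 0.41 and Ptgs2, the inducible cyclooxygenase, at -0.37. Cholesterol synthesis and uptake had 17 of 29 above 0 and a median of 0.025. Its range ran from -0.29 for Lss, lanosterol synthase, to 0.36 for Srebf1, a regulator of lipid synthesis (adjusted p = 0.327, groups not overlapping). Amyloid precursor processing and clearance had 7 of 23 above 0 and a median of -0.072, led by Adam17 (-0.41) and Ncstn (-0.25). Among 18 genes of iron handling the median was 0.026, and Lcn2 and Trf lay at its ends.

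All 24 myelin and oligodendrocyte genes had a positive log2 change in the supplemented Ttpa-/- against the deficient wild-type cortex, and 0 of them passed the test. Their log2 changes were 0.13 to 0.99 with a median of 0.343, and for 3 of 24 the groups did not overlap, as they did not for 5.56% of all tested probes. Opalin, an oligodendrocyte membrane protein, measured -0.40, -0.31, 0.17 and -0.06 in the Ttpa-/- cortex and -2.01, -1.23, -1.29 and -0.03 in the wild-type cortex (log2 0.99, adjusted p = 0.421). Wild-type replicate 4 was as high as the Ttpa-/- arrays.

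Ugt8a, which makes the myelin lipid galactosylceramide, had a change of 0.95 (adjusted p = 0.314). Trf, the iron carrier transferrin, measured 6.56, 6.27, 6.29 and 6.5 against 5.23, 5.88, 5.68 and 6.13, without overlap (log2 0.67, adjusted p = 0.328). The compact myelin gene Mbp stood nearer 0, at 0.16. Set against normally fed aged wild-type cortex, on another slide, the supplemented Ttpa-/- cortex had log2 changes of 0.18 for Opalin, -0.09 for Ugt8a and 0.01 for Trf. The deficient wild-type cortex had -0.81, -1.04 and -0.67, so of these 2 groups the deficient wild-type arrays were the low ones. None of these changes passed the adjusted p. The deficient Ttpa-/- cortex, on yet another slide, was also low for Opalin (-1.16, limma adjusted p = 0.034) and Trf (-0.70, limma adjusted p = 0.0296). For Ugt8a it had -0.19 (adjusted p = 0.719). Low Opalin and Trf were therefore not particular to the deficient wild-type cortex. The summed signal of the 24 genes, as a multiple of the array's 75th percentile, was 629, 521, 545 and 565 in the Ttpa-/- and 381, 460, 429 and 485 in the wild-type cortex, and these did not overlap. All 24 stayed above 0 with any of the 8 arrays left out, with a median of 0.259 without wild-type replicate 1 and 0.436 without wild-type replicate 4. The median was 0.219 with arrays scaled to their medians. Oligodendrocyte precursors had 9 of 16 above 0 and a median of 0.027, with Enpp6, a marker of newly forming oligodendrocytes, at 1.16 (adjusted p = 0.26). Enpp6 was well above background on 4 of 4 Ttpa-/- and 2 of 4 wild-type arrays. It entered the test through the Ttpa-/- arrays, and the size of its change rests on signals near background.

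Markers of tissue around the cortex also had positive values. All 18 choroid plexus genes had a positive log2 change, of 0.60 to 1.11 with a median of 0.75. For 2 of 18 the groups did not overlap, as they did not for 5.56% of all tested probes. An unadjusted limma p under 0.05 was reached by 0 of 18, with a spread estimated over all 10 groups of both regions. Kcne2, a potassium channel subunit (1.11, adjusted p = 0.819), and Sostdc1 (1.1, adjusted p = 0.732) led the list. The fitted SE of Sostdc1 was 0.84, while its SDs in the Ttpa-/- and wild-type cortex were 0.57 and 0.39. The summed signal was 166, 204, 82.8 and 93.8 on the Ttpa-/- arrays and 124, 99.4, 41.8 and 73.8 on the wild-type arrays, so that the ranges overlapped widely. Leaving out an array kept all 18 above 0, with medians of 0.583 to 0.975.

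Red blood cell genes had 10 of 11 above 0 and a median of 1.651. Hbb-bs, a β-globin, measured 0.10, 3.52, 2.19 and 0.65 against -0.35, -0.99, -1.21 and 0.81 (log2 2.05, adjusted p = 0.473). Ttpa-/- replicates 2 and 3 were the high arrays, and the summed signal of the list was 155, 679, 347 and 180 against 140, 119, 118 and 211. Globin genes are near-identical copies, and a probe of one may take up RNA of another. Without Ttpa-/- replicate 2 the median was 1.125. Meninges and fibroblasts had 17 of 24 above 0 and a median of 0.098, with Col5a1 at 0.90 (adjusted p = 0.232) and Col3a1 at 0.63, while the summed signal was 327 to 405 on the Ttpa-/- and 357 to 425 on the wild-type arrays. The part of these markers in the myelin and collagen values was not tested.

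**Figure D5:**
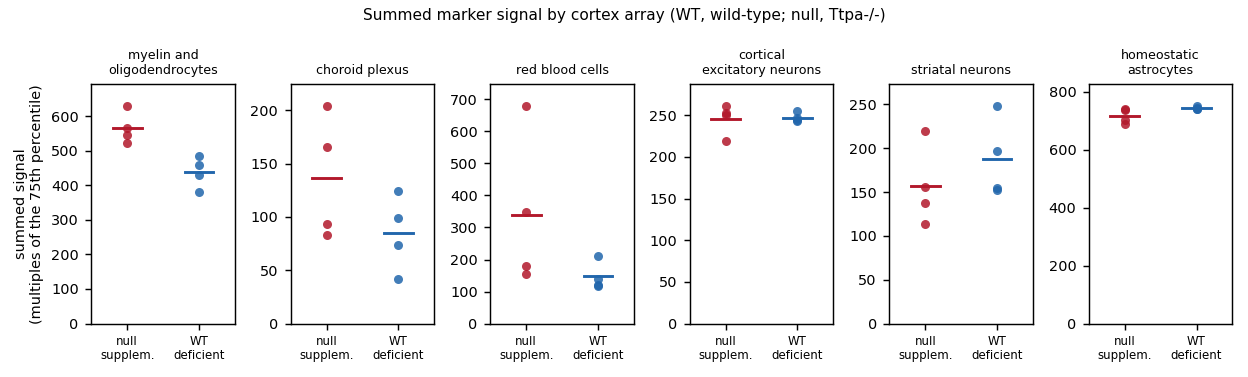
Summed signal of 6 marker lists, in multiples of the array's 75th percentile, with a point for each of the 4 supplemented Ttpa-/- and 4 deficient wild-type arrays. Among the lists shown, the myelin list separates the groups, at 521 to 629 against 381 to 485, and the excitatory neuron list overlaps, at 219 to 261 against 243 to 255.

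Reactive astrocyte genes had 4 of 24 above 0 and a median of -0.203, which was -0.092 without wild-type replicate 1 and -0.298 without wild-type replicate 4. Lcn2, the iron-siderophore binding lipocalin, measured -0.82, -0.82, -1.13 and -1.62 in the Ttpa-/- cortex and 3.05, 1.53, 0.59 and -0.77 in the wild-type cortex (log2 -2.20, SE 0.65, adjusted p = 0.261). The groups were apart only narrowly, since wild-type replicate 4 lay beside the Ttpa-/- arrays. Gbp2, an interferon-induced GTPase, measured -0.92, -0.81, -1.12 and -1.10 against 2.31, 0.27, -0.36 and -0.82 (log2 -1.34, adjusted p = 0.347).

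Interferon-stimulated genes had 10 of 35 above 0 and a median of -0.061, with Gbp4 at -2.01 (adjusted p = 0.326), and the median was 0.056 without wild-type replicate 1. MHC class I genes had 3 of 22 above 0 and a median of -0.201, which was -0.061 without that array. Psmb8, an immunoproteasome subunit, had -0.61 (adjusted p = 0.311), without overlap, and Nlrc5, the activator of MHC class I genes, had -0.56. MHC class II genes had 1 of 8 above 0 and a median of -0.277 (-0.153 without wild-type replicate 1), with the invariant chain Cd74 at -0.48 and H2-Aa at -0.42. All 31 proteasome genes were below 0, by a median of -0.111 and at most -0.21, for Psmd13 and Psmb3, and with normexp 2 of them were above 0.

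Microglial lists showed less. Homeostatic microglia had 9 of 16 above 0 and a median of 0.04, with the purinergic receptor P2ry12 at 0.52 (adjusted p = 0.326). Disease-associated microglia had 8 of 25 above 0 and a median of -0.094, led by Lgals3, galectin 3, at -0.45. Complement genes had 10 of 17 above 0 and a median of 0.078, with Cfp, properdin, at 0.44 and C4b at 0.32. T cell genes had 5 of 12 above 0 and a median of -0.116, and 9 of 23 on the array were below background on all 8 arrays. Homeostatic astrocytes had 10 of 20 above 0 and a median of -0.009.

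Endothelial genes had 9 of 23 above 0 and a median of -0.052, and the groups did not overlap for 3 of 23 (5.56% of all tested probes). Ly6c1, a surface protein of endothelial and myeloid cells, measured 3.61, 4.07, 3.93 and 3.87 against 5.24, 4.54, 4.39 and 4.11 (log2 -0.70, adjusted p = 0.242). Ly6a was at -0.70 with groups that overlapped. Wild-type replicate 1 was again the highest array for both.

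Heat shock chaperones had 9 of 29 above 0 and a median of -0.054, with Hspa1l at -0.68 and Hspb1 at -0.62, and the groups did not overlap for 4 of 29 (5.56% of all tested probes). Hspa1l exceeded background on 2 of 4 Ttpa-/- and 4 of 4 wild-type arrays and entered the test through the wild-type arrays. Endoplasmic reticulum stress genes had 14 of 27 above 0 and a median of 0.003, with Ddit4 at -0.83 and Atf3 at -0.61. Neuronal immediate early genes had 6 of 32 above 0 and a median of -0.104, with Ier3 at -0.37 and Jun at -0.33. The clock genes had 12 of 24 above 0 and a median of -0.007, with Cry1, a repressor of the clock, at -0.31.

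Excitatory neurons had 15 of 24 above 0 and a median of 0.041, with Tle4 and Neurod6 both at 0.33, and GABAergic interneurons had 14 of 23 and 0.042, with Calb2 at 0.40 and Pvalb at 0.32. Synaptic receptors had 24 of 36 above 0 and a median of 0.065, with Gria2, an AMPA receptor subunit, at 0.78 (adjusted p = 0.448) behind Grin3a. The signs of these 3 medians turned when each array was scaled to its median, which moved the median of all tested probes to -0.14.

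Striatal neuron genes had 1 of 19 above 0 and a median of -0.262. Penk, the enkephalin precursor, measured 5.64, 4.68, 3.80 and 4.93 against 6.06, 5.38, 4.82 and 4.96 (log2 -0.54, adjusted p = 0.486). The groups overlapped, and the summed striatal signal was 113 to 220 on the Ttpa-/- and 152 to 248 on the wild-type arrays. Syndig1l was also at -0.54. Leaving out Ttpa-/- replicate 3 gave a median of -0.104, and leaving out Ttpa-/- replicate 1 gave -0.43. Hippocampal neurons had 8 of 15 above 0 and a median of 0.018, with Dsp at 0.83 and C1ql2 at 0.79. Cerebellar cells had 11 of 16 above 0 and a median of 0.119, with Zic4 at 0.35. Their summed signal was 94.9 to 101 on the Ttpa-/- and 87.4 to 93 on the wild-type arrays, so this list, like myelin, did not overlap.

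The remaining lists had medians close to that of all probes. Genes of the hypothalamus and midbrain had 5 of 15 above 0 and a median of -0.028, between Avp, the vasopressin precursor, at -1.23 and Lhx9 at 1.09. Neuropeptide precursors had 7 of 27 above 0 and a median of -0.07, with Trh, the precursor of thyrotropin-releasing hormone, at 0.38. Respiratory chain genes had 28 of 75 above 0 and a median of -0.023, within -0.14 (Ndufb8) to 0.21 (Ndufab1). Ribosomal proteins had 12 of 73 above 0 and a median of -0.042, with Rplp0 and Rpl41 at -0.17, and Xist was at 0.38 (adjusted p = 0.58).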

How the data were processed

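Per the labels, gene expression was measured in total RNA of cortex and cerebellum on 40 arrays, 1 array per sample, and the methods give 4 mice per group. The labels do not tie cortex to cerebellum samples of the same animal. The authors deposited the scanner's processed signal and raw spot and background intensities, produced by Feature Extraction 10.7.3.1, with quality flags of 0 or 1. The processed intensity has had the background subtracted and spatial trends removed by the scanner software, array by array. A table of log2 values, likewise deposited, equalled the scaled and probe-centred log2 intensity to a median absolute difference of 0.000915, and served as an alternative. The methods name global normalization, R and a fold change over 1.5 for the arrays, and Student's test for comparisons of a pair of groups in general without saying that it was used on the arrays.

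Spots flagged as non-uniform or as outliers were left out (101 to 148 on the 8 arrays), repeated spots were averaged, and 55589 of 55681 probes were kept. Each log2 signal was scaled to the 75th percentile of its array. Groups were compared with limma 3.58.1 in R 4.3.3 on all 40 arrays with 10 group coefficients, and Benjamini-Hochberg adjustment covered the tested probes. The number of arrays limits the precision, and 0 spots were saturated. A level not above background on any array of a group gives a fold change only as a bound. Adam17, Gbp4, Dsp, Lhx9 and Fcgbp were above background on 3 of 4 arrays of their lower group. They entered the test through the higher group alone. Probe sequences and mm9 coordinates came from the array files, and older symbols were updated through RefSeq tables, where 20591 of 21916 accessions matched. The fit was tested on simulated data with known changes.

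Named genes were all called genes, then those of smallest p until 24 were named, genes the study followed, and the members of largest change of each list. A list member that this rule named is not reported here. The 14 probes had a GC content of 28.3% to 45%, against a median of 43.3% over all probes. The comparison, the members of the lists and the tests were chosen with earlier results of these data known. Alternatives covered scaling, background correction, the filter on dim probes, the samples in the fit, the call rule, the methods' t-test and each array left out. The replicate numbers were not used to pair samples, and no set test was run.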

Additional observations from a re-analysis of the deposited data

Results flagged for a closer look

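For 240 groups of 4 arrays, the gap between the extreme array and its neighbour was divided by the range of the group, and 21 exceeded the 95% critical value of Dixon's test. Chance flags about 1 in 20 groups. Among the genes that passed the test, the ratio was 0.84 for the highest Ttpa-/- array of Car8, 0.905 for the lowest wild-type array of Asph, 0.91 for the lowest wild-type array of Fam122b and 0.917 for the highest wild-type array of NAP095541-001. Among genes near the threshold it was 0.942 for the lowest Ttpa-/- array of Tle1, 0.893 for the lowest Ttpa-/- array of Phkg1, 0.902 for the highest Ttpa-/- array of Tnfsf9 and 0.87 for the highest wild-type array of Slc38a6.

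In the immune lists, the ratio was 0.84 for the highest wild-type array of Nlrc5, 0.904 for the highest wild-type and 0.882 for the lowest Ttpa-/- array of Cd74, and 0.85 for the lowest Ttpa-/- array of H2-Aa. For Nlrc5 and Cd74 the wild-type array set apart was replicate 1, at -1.09 and 1.07. Other list members had ratios of 0.877 (Neurod6, lowest wild-type), 0.893 (Ptgs2, highest Ttpa-/-), 0.864 (Hspa1l, lowest wild-type), 0.874 (Hspb1, highest Ttpa-/-), 0.948 (Ier3, lowest wild-type), 0.843 (C1ql1, highest wild-type) and 0.967 (Rpl41, highest wild-type). The share of probes well above background was set apart for the lowest wild-type array at 0.89, and the summed cerebellar cell markers for the lowest wild-type array at 0.841.

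The difference between cortex and cerebellum was called for 923 probes in limma's interaction test. Among the probes named here its adjusted p was 0.000132 for A_55_P2424060, 0.00458 for Tatdn3, 0.00798 for lincRNA A_30_P01028904, 0.0116 for A_55_P2111336 and 0.0206 for both Klhl32 and 4930579C15Rik. It was 0.0198 for Cd3e, a T cell receptor subunit with log2 changes of -0.25 in the cortex and 0.46 in the cerebellum. It was 0.0331 for Mlph, 0.0346 for Slc38a6, 0.0452 for Ptgs2, whose cerebellar change was -2.11, and 0.0489 for Gria2. In the cerebellum the groups lie on different slides, and slide and group cannot be told apart there.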

How the results depend on the processing

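The counts of up- and down-regulated probes, 7 and 2, were 1 and 1 with median scaling, 5 and 1 with quantile normalization, 2 and 3 with normexp, 7 and 2 with the deposited log2 values, 12 and 6 without the filter on dim probes, 6 and 1 for probes above background on all compared arrays, 104 and 50 with array weights, 0 and 0 with the 8 arrays alone (345 and 135 at an unadjusted p), 4 and 1 with the 20 cortex arrays alone, 2 and 1 when genes replaced probes, 538 and 175 at an unadjusted p and 10 and 4 without the fold threshold. The methods' t-test gave 220 and 99 unadjusted and 0 and 0 after Benjamini-Hochberg. Leaving out an array gave 2 to 60 and 1 to 39, with the highest counts without wild-type replicate 4. With the replicate number as a replicate block they were 9 and 3, and the interaction count was 1134. Samples of the same number shared a slide column and no stated animal or batch, with deviations correlated at 0.0066 to 0.47.

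The interaction count of 923 was 1739 with median scaling, 1485 with quantile normalization, 680 with normexp, 1700 with array weights, 363 with the compared arrays alone, 3243 at an unadjusted p and 147 for genes, and 421 to 1498 with an array left out. Reversed signs were seen only for genes that had not passed: Ide was -0.12 with median scaling and -0.03 to 0.08 with an array left out (below 0 without wild-type replicate 2 or 4 or Ttpa-/- replicate 1, 3 or 4), Fcgbp -0.08 with normexp, Gm3448 -0.36 to 0.17 (above 0 without wild-type replicate 1, and 0.10 without Ttpa-/- replicate 4), Tcp10c -0.20 to 0.01 (highest without Ttpa-/- replicate 4), and Trh -0.21 to 0.88 (lowest without Ttpa-/- replicate 2). The share of the chromosome 4 stretch at p under 0.01, an alternative chosen after seeing the data, was 5.16% to 9.29% with an array left out, against 0.942% to 4.78% on other chromosomes. The cause of these changes was not tested. Signals near background, such as Car8 and the lincRNAs, limit what these arrays can show.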
